A study of Mus musculus with 6 samples.

Results

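The genes described here encode 10 tripartite motif (TRIM) proteins that act in the response to virus: Trim21, Trim25, Trim26, Trim30a, Trim30d, Trim34a, Trim12a, Trim12c, Trim14 and Trim56. They were chosen by name, with earlier results of these data known, so their counts are a description. The level of a gene is the sum over its transcripts in FPKM, the fragments counted for a transcript divided by its length and by the size of the library. Of the 10 genes, 8 had transcripts in the deposited data, out of 11835 genes in all, and Trim12a and Trim14 were not analysed here. The sequenced RNA came from C2C12, a mouse myoblast line that fuses into myotubes in low serum. In 3 cultures the cells were transfected with NC siRNA, the control siRNA (siNC), and in 3 with CNN3 siRNA against calponin 3, an actin-binding protein (siCNN3). All 6 therefore received an siRNA, and all 6 are listed with horse serum at the same percentage. The study's methods induce differentiation in medium with horse serum, and for differentiation they repeat the transfection before harvest. The harvest time of the sequenced cultures is not stated separately. The labels call the cells mouse myotubes and the study calls them differentiating myoblasts. Which of the study's CNN3 siRNAs was sequenced is not given in the sources used here.

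TRIM proteins share a RING domain, B-boxes and a coiled coil, followed by a C-terminal part that binds the target. The RING domain makes most of them ubiquitin ligases, and TRIM14 is known for lacking it, so the name E3 ligase does not cover that gene. Many of them tag components of the RNA and DNA sensing pathways with ubiquitin, which raises or dampens the production of type I interferon. Several TRIM genes are themselves induced by interferon through the interferon-stimulated response element (ISRE), a DNA motif bound by interferon regulatory factors. Muscle cells are not immune cells, but they carry this pathway, as most cell types do.

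The genes lie in few places. Trim34a, Trim12a, Trim12c, Trim30a and Trim30d sit within 263.4 kb of chromosome 7 of the mouse build GRCm38, from 104244457 to 104507849, in a cluster that also holds Trim5, Trim30b, Trim30c and Trim34b. Trim21 lies 1679 kb before it on the same chromosome (102557921 to 102565486, minus strand). Trim25 is on chromosome 11 (88999376 to 89020293, plus strand), Trim26 on chromosome 17 (36837134 to 36859398, plus strand) and Trim56 on chromosome 5 (137105644 to 137116209, minus strand).

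Promoter sequences of RefSeq for GRCm38.p6, from 250 bases before to 50 bases after a start, were given for 9 of the 10 genes, and for 8 of the 8 analysed ones. The ISRE was searched on both strands as GAAA, any 2 bases and again GAAA, and a match was found in 6 of the 8 analysed genes. Among all 9074 tested genes with a promoter, 3.79% had one, and among 25 other TRIM family genes it was 1, Trim2. The matches are shown because these letters are what the promoters of genes on 3 parts of the genome share. Each line runs 5′ to 3′ on the strand of the gene, and the capitals mark the match. Lines with TTTC hold the same motif read on the other strand.
Trim21: cctctgagagGAAACTGAAAgtgaaatttg
Trim34a: tggtttggagTTTCAGTTTCttttctctgc
Trim12c: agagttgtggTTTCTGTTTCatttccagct
Trim30a: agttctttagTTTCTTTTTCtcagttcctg
Trim30d: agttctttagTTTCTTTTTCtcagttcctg
Trim26: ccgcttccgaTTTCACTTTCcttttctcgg

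The Trim21 line lies at chr7:102565450-102565479, and its match covers bases 14 to 23 after the start. A second match in Trim21, from base 20 to 29, overlaps it. The Trim34a line is at chr7:104244457-104244486, also behind the start (bases 11 to 20). The matches of Trim12c (line at chr7:104353359-104353388), Trim30a (chr7:104465210-104465239) and Trim30d (chr7:104507871-104507900) begin at bases -29, -36 and -41, counted from the start. In Trim26 (chr17:36836976-36837005) the match lies farther away, at bases -160 to -151, and a second match overlaps it there too. The lines of Trim30a and Trim30d are alike at 30 of 30 positions, and the 2 promoters share a run of 118 bases. Trim12c and its neighbour Trim12a share 28 of 30 positions of the corresponding line. A downstream start of Trim30a, with a promoter of its own, also had a match, 3 to 12 bases behind it. The promoters of Trim25 and Trim56 had 0 matches, which says only that these letters are not in these windows. With a stricter motif (GAAAC, any base, GAAA), found in 0.871% of tested genes, 3 of the 8 genes kept a match (Trim21, Trim34a and Trim12c). A further interferon motif (GAS: TTC, any 3 bases, GAA) was also searched. It was found in 0 of the 8 genes, compared with 8.29% of tested genes and 3 of 25 other TRIM family genes.

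**Figure D1:**
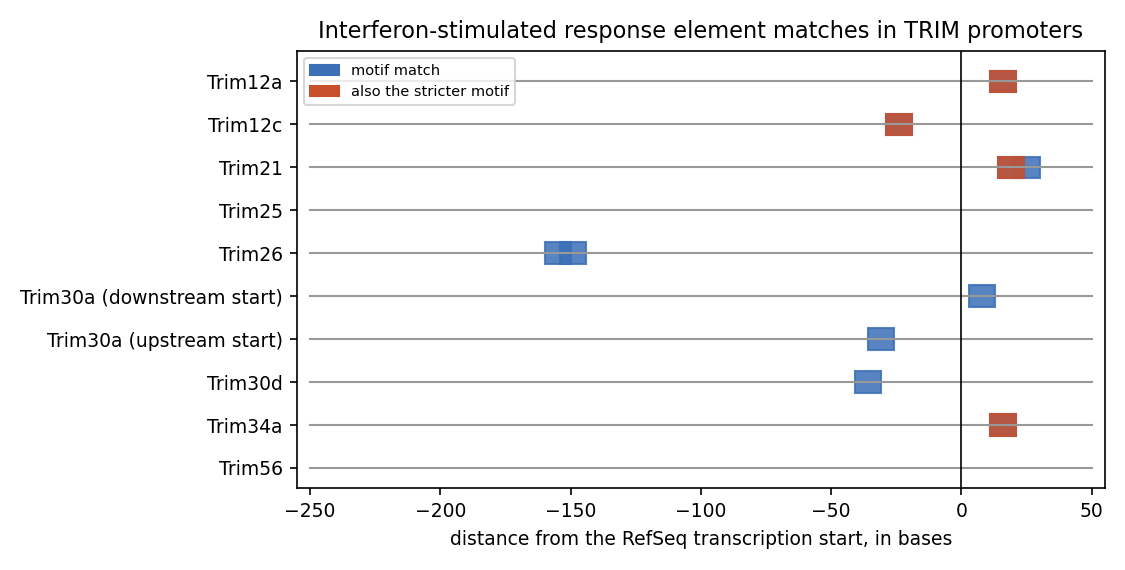
Positions of ISRE matches in the promoters of the TRIM genes, with the distance from the RefSeq transcription start in bases on the x axis and 1 line for each promoter. Most boxes lie within about 50 bases of the start, Trim26 has its overlapping matches near 150 bases before it, and Trim25 and Trim56 have none.

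The depth of the libraries is unknown, since the files give FPKM and no counts, and FPKM summed to between 322621 and 355591 in a library. Cnn3, the target, was at 62.8, 61.4 and 62.8 FPKM in the siNC libraries (replicates 1, 2 and 3, in this order throughout) and 19.0, 39.2 and 25.6 in the siCNN3 libraries. Its groups did not overlap, but it was not called (adjusted p = 0.0669, limma). The muscle markers used to check the label summed to between 183.9 and 217.1 FPKM in siNC and to between 124.5 and 133.7 FPKM in siCNN3, and 4 of 9 tested ones were called lower (Acta1, Myh3, Tnnt1 and Mylpf), where 0.336% of all tested genes were. The other 5 were not called, with Myod1, Myog and Des below 0 and Myf5 and Tnnt2 above 0 on the log2 scale (0.88 and 0.27). Of 13 leukocyte markers only Cd68, Lyz2 and Cd14 were listed, at 20.1 to 27.1 FPKM together in siNC and 16.3 to 19.2 in siCNN3, with 0 of the 3 called. Their defining markers Ptprc, Adgre1, Csf1r, Itgam and Tyrobp were not analysed here. Of the endothelial markers only Tek was listed, at 0.681 to 1.37 FPKM in siNC and 0.733 to 1.24 in siCNN3. The globin genes among the red cell markers summed to 224.5 to 653.2 FPKM in siNC and 49.9 to 72.7 in siCNN3, opposite to the TRIM genes, and siNC replicate 2 was the highest library for each. Of the 4, Hbb-bs and Hbb-bt were called lower (adjusted p = 0.0264 and 0.0495, limma). The part of these differences in the TRIM values was not tested. RNA was taken from whole cultures, so a change in the number of cells that express a gene and a change in RNA per cell cannot be told apart.

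The comparison of siCNN3 with siNC asked whether the TRIM genes differed after the CNN3 siRNA. By limma on log2(FPKM + 1), 4 of the 8 tested genes were called higher, namely Trim30a, Trim30d, Trim34a and Trim25, where 1.73% of all 11593 tested genes were called higher. None was called lower (0 genes by limma), where 0.336% of tested genes were. Without adjustment, 7 were higher and 0 lower at p below 0.05, compared with 9.94% and 6.14% of all tested genes. Trim12c and Trim21 did not overlap between the groups but missed the threshold, as did Trim56, and Trim26 overlapped. In all, 7 of the 8 had every siCNN3 library above every siNC library, compared with 13.8% of all tested genes, and 0 had every siCNN3 library below, compared with 9.35%. The median log2 fold change of the 8 analysed genes was 2.00, and that of all tested genes was 0.03. All 8 passed the filter of a mean of 0.5 FPKM, but Trim30d passed only through its siCNN3 libraries. All fold changes refer to log2(FPKM + 1), where the added 1 shrinks the change of a gene at low level.

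**Figure D2:**
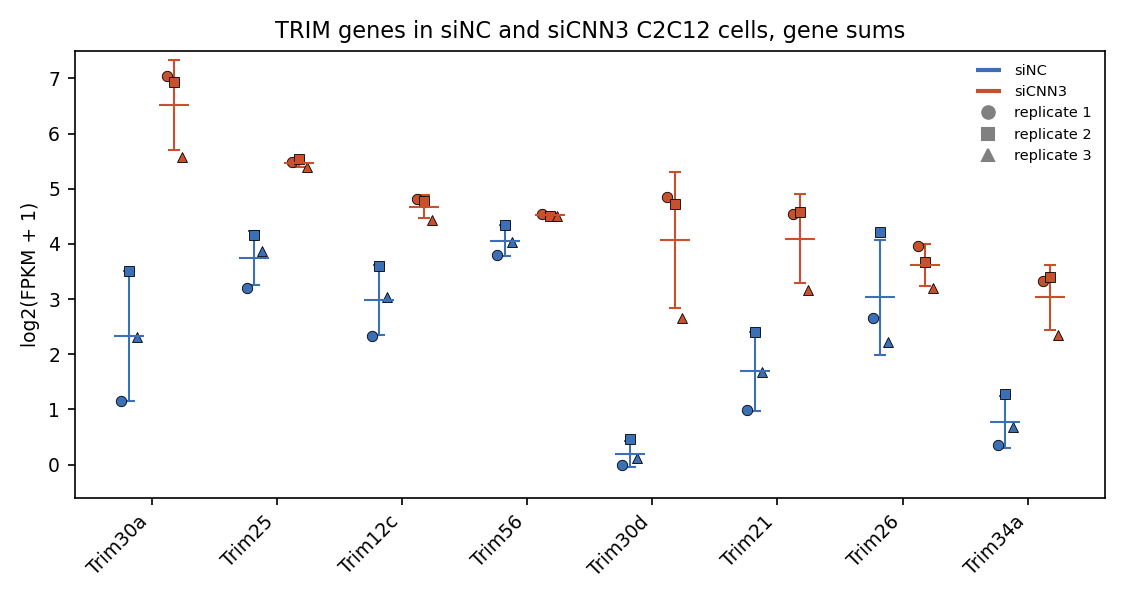
Level of each analysed TRIM gene as log2(FPKM + 1) on the y axis, with 1 symbol for each library, a bar for the group mean and whiskers for the SD (n = 3). For 7 genes the siCNN3 symbols lie above all siNC symbols, for Trim26 they mix, and within siNC replicate 2 is the highest for 8 of 8 genes.

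Trim30a is a rodent TRIM gene whose product is known to dampen NF-κB signaling by directing the adaptors TAB2 and TAB3 to degradation. It was listed at 1.22, 10.4 and 3.99 FPKM with NC siRNA and 130.2, 120.8 and 46.9 with CNN3 siRNA. The lowest siCNN3 library was above the highest siNC library, and siCNN3 replicate 3 stayed well below the other two. The mean was 5.19 ± 4.69 FPKM for siNC, against 99.3 ± 45.6 for siCNN3 (SD, n = 3), a ratio of 19.1 that became 38.1 without siNC replicate 2. Its log2 fold change was 4.19 ± 0.637 (standard error; adjusted p = 0.0304, limma). The RNAs of its targets, Tab2 and Tab3, were not called, with log2 fold changes of -0.09 (95% interval -0.40 to 0.23) and 0.18 (-0.17 to 0.53). The TAB2 and TAB3 proteins were not measured in these data, so their degradation was not tested.

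Trim30d, a close paralog in the same cluster, was listed at 0, 0.376 and 0.0866 FPKM in control libraries, against 27.9, 25.4 and 5.28 after CNN3 siRNA. It was thus nearly absent from the siNC data and spread over a wide range in siCNN3, with replicate 3 again the lowest. The log2 fold change was 3.88 ± 0.568 (standard error; adjusted p = 0.0264, limma). No ratio of means is given, since a listed 0 can be a failed estimate.

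Trim34a is a cluster gene related to TRIM5, which binds retroviral capsids in primates. It was at 0.273, 1.42 and 0.594 FPKM with NC siRNA, against 9.09, 9.60 and 4.11 with CNN3 siRNA. The groups were apart, although siNC levels were among the lowest of the 8 genes. Its means were 0.762 ± 0.592 and 7.60 ± 3.03 FPKM (SD, n = 3), a ratio of 9.98 that became 17.5 without siNC replicate 2. The log2 fold change was 2.27 ± 0.356 (standard error; adjusted p = 0.0322, limma).

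Trim12c, one of the mouse counterparts of primate TRIM5, was at 4.04, 11.1 and 7.18 FPKM with NC siRNA and 27.2, 26.6 and 20.5 with CNN3 siRNA. Its libraries were close together in siCNN3 and did not reach down to siNC. The means were 7.45 ± 3.55 and 24.7 ± 3.66 FPKM (SD, n = 3), a ratio of 3.32. The log2 fold change of 1.69 (standard error 0.315, 95% interval 0.94 to 2.43) was just outside the threshold (adjusted p = 0.0519, limma).

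The cluster also holds near copies, and reads can be split between them. Of the 50-base stretches of the Trim34a transcripts, between 41.3% and 52.6% also occur in another gene, Trim34b. For Trim12c it was 33.7% and 41.4% in its 2 transcripts, mostly shared with Trim5 and less with Trim12a. Trim30a shares 6.53% with Trim30d, and the 2 transcripts of Trim30d share 15.4% and 8.29% with other genes, mostly Trim30a, whereas Trim25, Trim26, Trim56 and Trim21 share under 1% with other genes. The values of Trim34a and Trim12c, and to a lesser degree of Trim30d and Trim30a, are therefore the less certain ones. Trim34b and Trim30c, named after their values were seen, did not overlap between the groups but were not called, and Trim30c passed the filter only through its siCNN3 libraries. Trim34b was at 0.473, 3.51 and 1.28 FPKM in control libraries, against 17.98, 15.2 and 6.76 after CNN3 siRNA (log2 fold change 2.43, adjusted p = 0.0629, limma). Trim30c was listed at 0, 0.105 and 0 FPKM with NC siRNA, against 10.8, 8.36 and 0.608 with CNN3 siRNA (log2 fold change 2.45, adjusted p = 0.150, limma).

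Trim25 encodes a ligase known for the ubiquitination of RIG-I, the sensor of viral RNA, and as a cofactor of the antiviral protein ZAP. It was at 8.22, 16.8 and 13.5 FPKM with NC siRNA and 43.9, 45.2 and 41.0 with CNN3 siRNA. The siCNN3 libraries lay close together, replicate 3 included, and far above siNC. Its means were 12.9 ± 4.35 and 43.4 ± 2.15 FPKM (SD, n = 3), a ratio of 3.37. The log2 fold change was 1.73 ± 0.240 (standard error; adjusted p = 0.0222, limma).

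Trim21 encodes a cytosolic receptor for antibody-coated virus that sends its cargo to the proteasome. It was at 0.977, 4.31 and 2.21 FPKM in control libraries, against 22.3, 23.0 and 7.93 after CNN3 siRNA. The groups were apart, with siCNN3 replicate 3 well below the other siCNN3 libraries. The means of 2.50 ± 1.69 and 17.7 ± 8.51 FPKM (SD, n = 3) gave a ratio of 7.10. Trim21 was not called, with a log2 fold change of 2.40, a standard error of 0.490 and an adjusted p of 0.0671 (limma).

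Trim56, which encodes a ligase reported to act on STING and cGAS of the DNA sensing pathway, had the narrowest spread in siCNN3. Its levels were 12.9, 19.4 and 15.4 FPKM with NC siRNA, against 22.2, 21.8 and 21.6 with CNN3 siRNA. The siCNN3 libraries nearly coincided and lay just above siNC replicate 2. The log2 fold change was 0.46, with a 95% interval from 0.07 to 0.84 and an adjusted p of 0.231 (limma). A change of 2-fold or more on this scale is thus outside the interval.

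Trim26, whose product has been reported to act on the IRF3 branch of interferon induction, was at 5.34, 17.5 and 3.66 FPKM with NC siRNA and 14.6, 11.8 and 8.23 with CNN3 siRNA. It was the 1 analysed gene whose groups overlapped, since siNC replicate 2 was above every siCNN3 library. Its log2 fold change was 0.59 with a 95% interval from -0.60 to 1.78 (adjusted p = 0.611, limma). These data leave both a decrease and an increase of Trim26 possible.

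The calls depended on single libraries, as did those over all genes. With siCNN3 replicate 3 left out, 6 genes were called higher, the 4 named above with Trim12c and Trim21 (adjusted p = 0.0499 and 0.0205, limma), and over all genes the number called higher went from 200 to 443 of 11611. Leaving out replicate 3 of siNC, or replicate 1 or 2 of siCNN3, left 0 genes called, and only Trim25 was called without siNC replicate 1. Over all genes these fits called 16, 39, 28 and 71 higher, so the loss was general. Without siNC replicate 2, Trim25, Trim30a, Trim34a and Trim12c were called, with 150 over all genes. Over all alternatives the log2 fold changes stayed between 3.60 and 4.78 for Trim30a, between 1.46 and 1.94 for Trim25, between 2.05 and 2.87 for Trim21, between 1.36 and 1.99 for Trim12c and between 0.33 and 0.60 for Trim56. That of Trim30d ran from 3.49 to 6.24, the highest with a pseudocount of 0.1, and that of Trim34a from 2.06 to 3.30, also highest there. For Trim26 it came to 1.18 when siNC replicate 2 was left out and to 0.18 when siNC replicate 3 was. Without siNC replicate 2 the ratio of mean FPKM became 11.1 for Trim21 and 2.57 for Trim26, where all libraries gave 7.10 and 1.31. An unmoderated equal-variance test of each gene called 0 genes after adjustment and put 7 of the 8 genes under an unadjusted p of 0.05, all higher, where 9.35% of all tested genes were higher by that test.

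The libraries kept an order over these genes. In siNC, replicate 2 was the highest library for 8 of the 8 genes, compared with 45.1% of all tested genes. In siCNN3, replicate 3 was the lowest for 8 of 8, compared with 48.4% of all tested genes. Among the 200 genes called higher, siNC replicate 2 was the highest for 107 and siCNN3 replicate 3 the lowest for 167. Among the siCNN3 libraries, Cnn3 itself was lowest in replicate 1 and highest in replicate 2, and its relation to the TRIM levels was not tested. Added over the 8 genes, FPKM were 32.9, 81.3 and 46.6 in siNC and 297.4, 284.1 and 155.6 in siCNN3, or 4.58 times the siNC mean. The exact two-sided permutation p was 0.1, the smallest that 3 libraries against 3 allow.

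FPKM are per length, so levels can be set side by side between genes. In siNC the order of mean FPKM was Trim56, Trim25, Trim26, Trim12c, Trim30a, Trim21, Trim34a and Trim30d, and every pair of neighbours overlapped between libraries. Trim56 was the highest of them in 3 of 3 siNC libraries, although its lead over Trim25 was within the spread. In siCNN3 the order was Trim30a, Trim25, Trim12c, Trim56, Trim30d, Trim21, Trim26 and Trim34a. Trim30a was the first in 3 of 3 libraries and did not overlap Trim25, which in turn did not overlap Trim12c, while from Trim12c down the neighbours overlapped. Among the means of all tested genes, Trim30a was at percentile 31.7 in siNC and 94.95 in siCNN3, and Trim25 at percentile 59.3 and 86.6. Trim30a made up 3.71%, 12.8% and 8.56% of the added FPKM of the 8 genes in siNC and 43.8%, 42.5% and 30.1% in siCNN3. Trim56 made up 39.1%, 23.8% and 32.9% in siNC and 7.47%, 7.66% and 13.9% in siCNN3. The group thus had Trim56 as its leading RNA in siNC and Trim30a in siCNN3.

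The deposited values are per transcript, and the 8 genes have 21 transcripts, of which 20 had a mean of at least 0.5 FPKM. Tested on their own among 21658 transcripts, 0 of them were called by limma, where 0.462% of transcripts were called higher and 0.0785% lower. Without adjustment, 12 were higher and 1 lower at p below 0.05, compared with 6.80% and 3.91% of all tested transcripts. Of the 12, 5 passed the filter only through siCNN3 (both transcripts of Trim30d, Trim34a-201, Trim25-202 and Trim26-210), so the count is no support for a change. Trim30a has a single listed transcript (Trim30a-201, 3771 bases, 8 exons), so its sum does not depend on a split between listed isoforms. For Trim25, the transcript with the longer coding sequence (Trim25-203, 9 exons) held between 95.6% and 99.4% of the FPKM in each library. For Trim56, the long transcript Trim56-201 held between 87.1% and 91.9%.

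For Trim12c the 2 transcripts, which have coding sequences of the same length (1491 bases), had unlike values. Trim12c-201, of 3740 bases, was at 2.32, 6.74 and 4.79 FPKM in control libraries, against 23.3, 25.4 and 17.1 after CNN3 siRNA. Trim12c-202, of 2484 bases, was at 1.73, 4.38 and 2.39 FPKM with NC siRNA, against 3.86, 1.11 and 3.43 with CNN3 siRNA. The higher gene sum thus lay in the longer transcript, where the log2 fold change was 2.10 (not called, adjusted p = 0.0854, limma), beside -0.04 for the shorter one (95% interval -1.07 to 0.98). The difference between the transcripts was not tested, and 98.6% of the 50-base stretches of Trim12c-202 are also in Trim12c-201, so few positions tell the transcripts apart.

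Trim30d-202 (coding sequence of 1041 bases) was listed at 0, 0.376 and 0.0866 FPKM with NC siRNA and 19.3, 17.6 and 3.54 with CNN3 siRNA. Trim30d-201, with the longer coding sequence of 1491 bases, was listed at 0 in the 3 siNC libraries and at 8.63, 7.84 and 1.73 FPKM in siCNN3. In siCNN3 the shorter coding form made up 69.1%, 69.1% and 67.1% of the FPKM of the gene, nearly the same share in libraries whose totals differed. For Trim21, Trim21-201 made up 85.8%, 79.6% and 81.3% in siCNN3, and 100%, 57.1% and 55.2% in siNC, where levels were low.

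Trim26 has 7 listed transcripts, and their values went in different directions. Trim26-201 was at 0.361, 13.8 and 1.25 FPKM in control libraries, against 2.96, 2.14 and 2.11 after CNN3 siRNA. The high Trim26 value of siNC replicate 2 therefore came from this transcript, which held 78.8% of the gene in that library and 6.76% in siNC replicate 1. Trim26-210, with a coding sequence of the same length (1635 bases), was at 0.183, 0.149 and 0.521 FPKM with NC siRNA, against 1.59, 1.47 and 1.40 with CNN3 siRNA. Trim26-205, again of that coding length, was at 1.71, 1.88 and 0.416 FPKM with NC siRNA and 0.0218, 0.0258 and 0.0647 with CNN3 siRNA, with every siCNN3 library below siNC. Between 97.8% and 100% of the 50-base stretches of these 3 transcripts also occur in other listed transcripts of the gene, and none of their changes was called (adjusted p = 0.983, 0.138 and 0.262, limma).

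**Figure D3:**
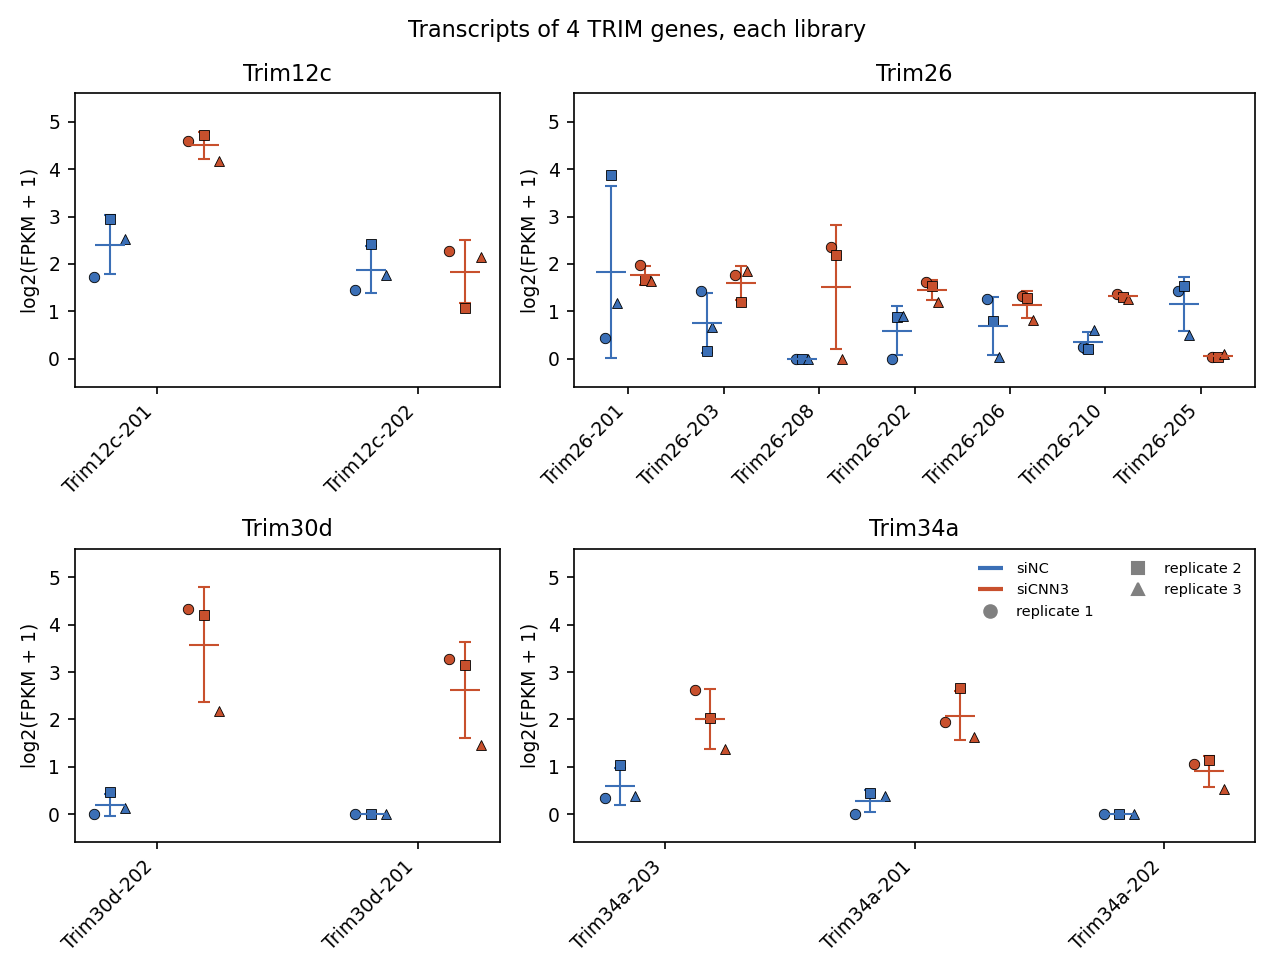
Level of each listed transcript of Trim12c, Trim26, Trim30d and Trim34a as log2(FPKM + 1) on the y axis, with 1 symbol for each library, a bar for the group mean and whiskers for the SD (n = 3). The siCNN3 symbols of Trim12c-201 lie above siNC while those of Trim12c-202 mix with it, and Trim26-205 is the transcript whose siCNN3 symbols lie below siNC.

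Of the other TRIM family genes, 0 of 33 were called by limma in either direction, a count near the share of all tested genes called (2.06%), and up to 3 were called with 1 library left out (Trim30c, Trim34b and Trim35 without siCNN3 replicate 3). Without adjustment, 5 were higher and 0 lower at p below 0.05 by limma, compared with 9.94% and 6.14% of all tested genes. Of the 5, Trim30c passed the filter only through its siCNN3 libraries. The unmoderated test also put 5 higher and 0 lower, compared with 9.35% and 6.18% of all tested genes. Of its 5, Pml, Trim23 and Trim34b were among the 5 of limma. The median log2 fold change of the 33 genes was 0.07, beside 2.00 for the 8 genes above. The most abundant ones were not called. Trim28, the corepressor of KRAB zinc finger proteins, was at 34.7, 55.2 and 46.7 FPKM in control libraries, against 49.1, 49.1 and 35.5 after CNN3 siRNA, a log2 fold change of -0.02 (95% interval -0.52 to 0.48). Trim35 was at 26.6, 34.8 and 32.7 FPKM with NC siRNA, against 65.8, 59.3 and 34.3 with CNN3 siRNA, where replicates 1 and 2 were above siNC and replicate 3 within it (log2 fold change 0.70, adjusted p = 0.243, limma). Trim59 and Trim8 had log2 fold changes of 0.35 and 0.16 (adjusted p = 0.448 and 0.664, limma), and their groups overlapped.

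**Figure D4:**
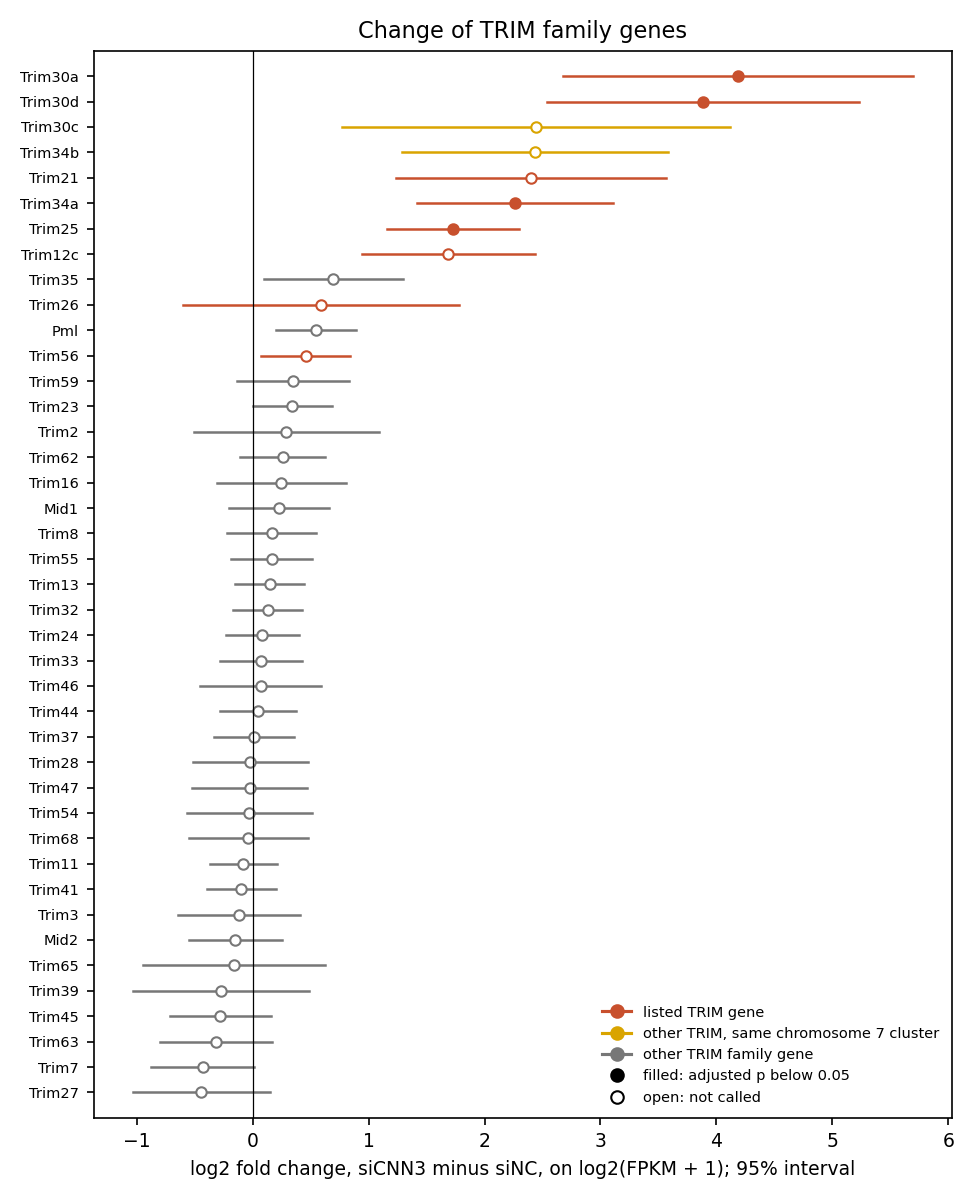
Log2 fold change of every tested TRIM family gene (siCNN3 minus siNC, on log2(FPKM + 1), x axis) with its 95% interval, filled where the adjusted p was below 0.05. Trim30a, Trim30d, Trim34a and Trim25 are filled, the cluster neighbours Trim30c and Trim34b are open circles at 2.45 and 2.43, Trim21 and Trim12c are open circles at 2.40 and 1.69, and the family genes outside the list and the cluster lie between -0.44 and 0.70.

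The proteins with which these TRIM proteins act were taken from a list of 48 genes, of which 7 were called higher and 0 lower by limma, where 1.73% and 0.336% of all tested genes were, and 0 by the unmoderated test. Without adjustment, limma put 18 higher and 1 lower at p below 0.05, compared with 9.94% and 6.14% of all tested genes. Their median log2 fold change was 0.17. Among the sensors of viral nucleic acid, 4 of 6 were called. Ddx58, which encodes RIG-I, the target of TRIM25, was at 3.27, 10.9 and 6.62 FPKM with NC siRNA and 31.2, 37.7 and 33.1 with CNN3 siRNA, a rise of 2.26 on the log2 scale (adjusted p = 0.0312, limma). Ifih1 (the RNA sensor MDA5), Dhx58 (its regulator LGP2) and Zbp1 (a sensor of Z-form nucleic acid) had log2 fold changes of 2.80, 3.33 and 4.60 (adjusted p values 0.0494, 0.0430 and 0.00473, limma). The Ifih1 call held in 5 of 15 alternatives and was lost with no filter and without a trend, among others, the Dhx58 call held in 8, the Ddx58 call in 11 and the Zbp1 call in 14. The RNAs of the DNA sensing proteins on which TRIM56 acts were not called, and the proteins were not measured in these data. Cgas had a log2 fold change of 0.34 (95% interval -0.28 to 0.95) and Tmem173, which encodes STING, one of -0.15 (-0.81 to 0.52).

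Of the adaptors and kinases that pass the signal on, 0 of 13 were called by limma, with log2 fold changes between -0.39 and 0.51, and 2 were higher and 1 lower at an unadjusted p below 0.05, shares near those of all tested genes (9.94% and 6.14%). Mavs, the mitochondrial adaptor behind RIG-I, had the lowest log2 fold change of them, at 9.39, 10.1 and 10.1 FPKM in control libraries, against 7.80, 7.95 and 6.30 after CNN3 siRNA (adjusted p = 0.243, limma). Of the transcription factors, 2 of 7 were called higher, and 4 were higher without adjustment. Irf7, 1 of the 2, was called with a change of 4.36 on the log2 scale (adjusted p = 0.0305, limma). Its call held in 9 of 15 alternatives and was lost with a pseudocount of 0.1, among others. Irf7, the amplifier of interferon induction, was at 0.796, 11.8 and 5.33 FPKM with NC siRNA, against 130.8, 121.5 and 76.6 with CNN3 siRNA, a range close to that of Trim30a. Among ubiquitin enzymes and cofactors 1 of 18 was called, Herc6, the ligase for ISG15 in mouse (log2 fold change 3.23, adjusted p = 0.0152, limma), where 1.73% of all tested genes were called higher. Without adjustment 8 were higher and 0 lower, compared with 9.94% and 6.14% of all tested genes, and 1 of the 8, Uba7, passed the filter only through its siCNN3 libraries. Isg15 itself, the ubiquitin-like modifier, had a larger log2 fold change of 4.08 with groups that did not overlap, but was not called (adjusted p = 0.112, limma). The 4 interferon receptor genes were not called, with log2 fold changes between -0.31 and 0.15 and 0 at an unadjusted p below 0.05. Zbp1 was called with any library left out, while it was the single called gene of the list when replicate 3 of siNC, or replicate 1 or 2 of siCNN3, was left out.

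**Figure D5:**
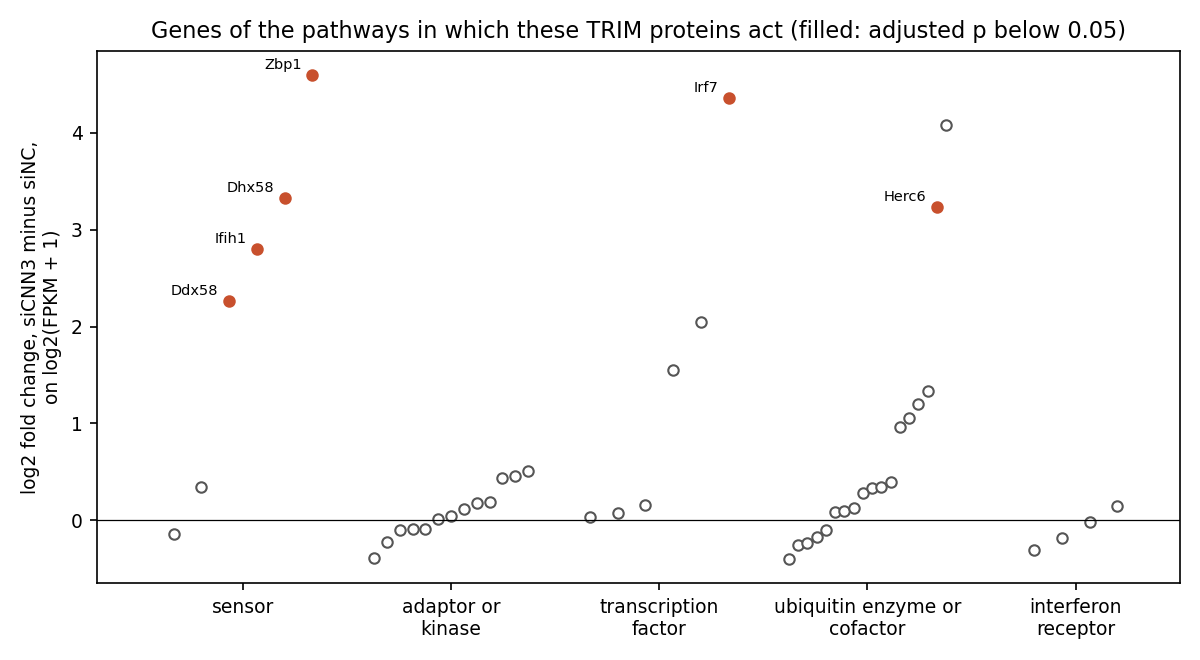
Log2 fold change (siCNN3 minus siNC, on log2(FPKM + 1), y axis) of the listed genes that act with the TRIM proteins, 1 called gene not shown, by role (x axis), with 1 circle for each gene and filled, named circles for adjusted p below 0.05. The called genes shown are 4 sensors, Irf7 and Herc6, while adaptors, kinases and receptors lie near 0.

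The genes whose log2(FPKM + 1) over the 6 libraries was most like the mean of the 8 TRIM genes were Nmt1, Rpia, Ifi211, Nmi and Tapbp, with Pearson's r between 0.9976 and 0.9988. This is a description over 6 libraries that fall into 2 groups, and 861 of 11585 genes had an r above 0.9. Nmt1, an N-myristoyltransferase, and Rpia, a pentose phosphate enzyme, shared the order of the libraries but not the size of the change, with log2 fold changes of 0.34 and 0.39 that were not called (adjusted p = 0.214 and 0.232, limma). Ifi211 was called higher (log2 fold change 2.60, adjusted p = 0.0322, limma), and Nmi and Tapbp were not (2.28 and 1.30, adjusted p = 0.0586 and 0.0572).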

How the data were processed

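RNA of 3 siNC and 3 siCNN3 cultures was sequenced, and groups and replicate numbers were taken from the sample titles. Nothing in the labels says that the cultures were independent, so p-values measure the spread between these libraries. The authors deposited FPKM for 24023 Ensembl transcripts in each library. Their processing notes name Bowtie 0.12.2 and the builds mm8 and mm10, and the program that made the FPKM is not given in the sources used here. The depth is unknown, which leaves counting error unknown.

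Identifiers were matched without version to GENCODE M21 (GRCm38), which matched 23949 of them. The 74 others held between 0.159% and 0.220% of the FPKM. FPKM were summed for each gene, a mean of 0.5 FPKM or more was required, and log2(FPKM + 1) was fitted with limma 3.58.1 (R 4.3.3; two-sided, with a trend of the variance on the mean; Benjamini-Hochberg adjustment over 11593 genes, threshold 0.05). The fit was run on simulated data with noise drawn independently for each gene. Such data lack the order of libraries shared by many genes here, so the run does not check the calls against it. Motifs and shared 50-base stretches were found in Python 3.11.15 with pandas 2.3.3.

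The members and lists were chosen with earlier results of these data known. Named are the 10 genes, called genes of the other lists (at most 8 and 12), the 4 most abundant other TRIM genes and the 5 genes most like the members. Other genes of the lists that the text names (such as Mavs, Isg15, Cgas, Tmem173, Tab2, Tab3, Uba7, Pml, Trim23, Trim2, Trim34b and Trim30c) were chosen after their values were seen. Alternatives were another pseudocount (0.1), quantile normalization, no filter or one at 5 FPKM, a replicate block, scaling by median of ratios, leaving out each library, an unmoderated equal-variance test of each gene (Student's, the study's test for a pair of groups), limma without a trend, and removal of 235 transcripts whose 0 in 1 library stood beside at least 10 FPKM in a replicate. Of the list of 48 genes, 1 is counted but not reported here by name.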

Additional observations from a re-analysis of the deposited data

How the results depend on the processing

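Every log2 fold change of the 8 TRIM genes kept its direction under the alternatives run. The 4 genes called higher became 1 with the replicate number as a block (Trim30d) and 0 with the unmoderated test of each gene, and between 0 and 6 when 1 library was left out, while the 200 genes called higher over all tested genes became 62, 0 and between 16 and 443. In the other 7 alternatives the count was 4 or 5, and the filter at 5 FPKM removed Trim34a from the test. Trim12c was called with that filter, with median-of-ratios scaling and with quantile normalization (adjusted p = 0.0456, 0.0407 and 0.0439, limma). The number called lower was 0 in each. For the other TRIM family genes, 0 called genes became up to 3 (Trim30c, Trim34b and Trim35, without siCNN3 replicate 3). For the 48 genes that act with them, 7 called genes became 4 with a pseudocount of 0.1, 3 with the block, 0 with the unmoderated test, and between 1 and 8 with 1 library left out. Member transcripts, whose alternatives were chosen after seeing the data, went from 0 called to 1 with a pseudocount of 0.1 (Trim30d-201) and to between 0 and 4 with 1 library left out, while the 100 transcripts called higher over all became 84 and between 1 and 267. The stricter ISRE motif left 3 of 6 genes with a match. The labels do not say whether same-numbered libraries were paired. These libraries deviated from their group means with correlations of -0.28, 0.31 and -0.02 across genes, which cannot decide it with so few libraries. The main fit has no block, and the block result is given only here. Depth is unknown, which leaves the precision of low levels, such as those of Trim30d and Trim34a in siNC, open to no check. The FPKM ratios without each library were also chosen after seeing the data.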
